A study of Arabidopsis thaliana with 10 samples.

Results

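Roots of the Arabidopsis thaliana mutant bts-3 were compared with roots of the wild type, both kept on medium with iron, using the 3 bts-3 arrays and the 2 wild-type arrays of that medium out of 10 arrays in all. BRUTUS (BTS), the gene the mutant is named for, encodes an E3 ubiquitin ligase with iron-binding hemerythrin domains. It is known to restrain the iron-deficiency response by promoting the breakdown of bHLH transcription factors that act at the top of that response. When iron is short, these factors switch on further bHLH factors such as BHLH101, which in turn raise genes for iron uptake, for the secretion of iron-mobilising coumarins and for iron signalling. The comparison asked which transcripts differed in the mutant although iron was supplied.

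The bts-3 +Fe group held 3 arrays of mutant roots and the WT +Fe group 2 arrays of Col roots, labelled as biological replicates. All plants had been on B5 medium during 2 weeks of growth and on +Fe medium for 3 days (72 h) thereafter, after which roots and shoots were separated and 100 ng of root RNA was labelled per array. The other 5 arrays, bts-3 -Fe (3) and WT -Fe (2), came from plants moved for the same time to medium without iron. The labels do not say what lesion bts-3 carries, all mutant arrays come from this 1 allele, and no probe set used here is named for BTS, so its transcript could not serve to check the genotypes.

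The values are RMA expression levels on a log2 scale, so a difference of 1 is a doubling of the signal. Their range over the 5 arrays was 0.713 to 14.1, with medians of 5.40 to 5.45. Arrays of the same group correlated across probe sets at 0.982 to 0.988 in bts-3 and at 0.991 in WT, and arrays of unlike genotype at 0.973 to 0.984. PYK10, an abundant beta-glucosidase of root endoplasmic reticulum bodies, had 13.14, 12.96 and 12.84 in bts-3 and 13.19 and 13.17 in WT, near the top of the scale in all 5 arrays. It was the measured member of the 11 root tissue markers listed; the others were not analysed here.

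Of 16722 probe sets paired with exactly 1 gene, 99 (0.592%) were called, at a limma adjusted p under 0.05. The transcript was higher in bts-3 for 52 of them (0.311% of those tested) and lower for 47 (0.281%). In all 99 the bts-3 arrays lay wholly above or wholly below the WT arrays, an arrangement that 13.4% of all tested probe sets showed upwards and 15.9% downwards. The called changes were large, but with so few arrays a small change could hardly be called, so their size partly reflects the threshold. Their log2 fold changes started at 1.1 upwards and at -1.06 downwards, with medians of 2.16 and -1.59, and 25 of them, 15 higher and 10 lower, also passed an adjusted p of 0.01. The median over all tested probe sets was -0.01, and 2036 had an unadjusted limma p under 0.05, where 836 would be expected if none differed. In bulk roots, fewer cells of a type and less RNA per cell cannot be told apart.

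**Figure D1:**
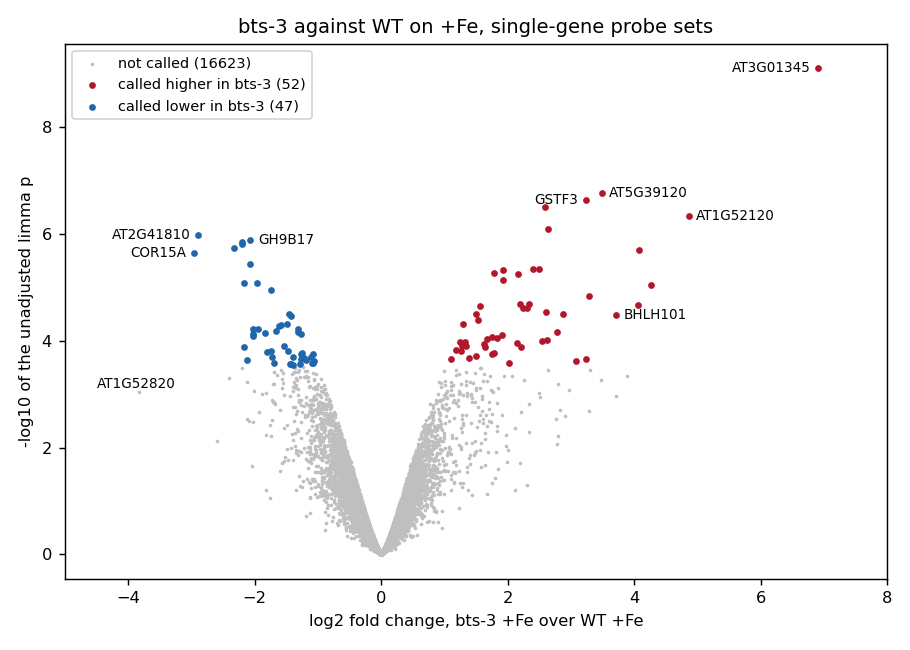
Each point is 1 single-gene probe set, with the log2 fold change of bts-3 +Fe over WT +Fe on the horizontal axis and -log10 of the unadjusted limma p on the vertical axis. The 52 called higher and 47 called lower are coloured, AT3G01345 stands alone at the upper right with 6.91, and AT1G52820 at -3.82 has the lowest fold change without being called.

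Only 19 of the 99 called genes carry a symbol in the annotation used here, 12 higher and 7 lower, a share of 19.2% where all tested probe sets have 10.9%. The other 80 are known by locus number alone in that annotation, and beyond the iron lists below, which were entered by locus number, no function is given for them. The number of calls rested on the WT arrays. Without WT replicate 1 a single probe set was called, AT3G01345, and without WT replicate 2 there were 4, AT3G01345, AT1G52120, AT5G39120 and GSTF3. Leaving out bts-3 replicate 1, 2 or 3 gave 33, 290 and 197 calls. All 99 kept their direction in each of these 5 fits, which had to be so because their arrays did not overlap between the genotypes.

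Iron-deficiency genes were among the functions that could be named on the higher side. Loci known to respond to iron shortage had been entered in 3 lists, by locus number, and 26 probe sets of 25 genes were measured. Of these 26, 25 had a positive fold change, 5 were called higher and none lower, and the median was 1.38 against -0.01 over all tested. The bts-3 arrays lay wholly above the WT arrays in 19 of 26 (73.1%, against 13.4% of all tested). All 26 had a higher mean in WT -Fe than in WT +Fe roots, as 8674 of all 16722 tested did. For 24 of the 26 the bts-3 +Fe mean lay between those WT means, as for 5592 of the 16722. The WT +Fe arrays enter both comparisons, and the lists were chosen with earlier results of these data known.

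BHLH101, a factor of the iron-deficiency cascade, had 7.27, 7.78 and 6.0 in bts-3 and 3.15 and 3.47 in WT. All 3 bts-3 arrays were far above the WT arrays, and replicate 3 was the lowest of them. The means were 7.02 ± 0.92 (SD, n = 3) in bts-3 and 3.31 ± 0.23 (SD, n = 2) in WT, which puts the log2 fold change at 3.71 (SE 0.45, adjusted p = 0.0152 by limma). AT1G47395, of the same signalling list, had 4.64, 5.15 and 4.18 in bts-3 and 2.88 and 2.86 in WT. It rose by 1.79 (SE 0.27, adjusted p = 0.0379), again with replicate 3 lowest and no overlap. The other 4 measured members of that list also had every bts-3 array above both WT arrays, and none of them was called. PYE (POPEYE), a bHLH factor of root iron homeostasis, had a fold change of 0.70 (SE 0.20, adjusted p = 0.196). AT1G74770 had 1.57 (SE 0.26), AT1G18910 0.87 and AT1G47400 0.80.

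Of the list of iron uptake and coumarin genes few members were measured, 6 probe sets from 19 listed loci. Those with a symbol, BGLU42 and HCT, belong to coumarin release and precursor supply. None of the 6 has the symbol of an iron uptake gene, so a rise of iron uptake genes cannot be read from this list. AT3G12900 was the called one. It had 11.46, 11.14 and 9.78 in bts-3 and 6.61 and 6.43 in WT, a rise of 4.27 (SE 0.44, adjusted p = 0.00655) without overlap. BGLU42, a beta-glucosidase of coumarin release, had 9.89, 10.16 and 8.50 in bts-3 and 7.44 and 7.77 in WT. Its groups did not overlap, yet its fold change of 1.91 (SE 0.44, adjusted p = 0.109) was not called. AT3G58060 had 2.12 (SE 0.54, adjusted p = 0.148). HCT, a hydroxycinnamoyl transferase of the phenylpropanoid pathway that supplies coumarin precursors, had 0.20, and both probe sets of AT1G28680 were near 0, at 0.25 and 0.04.

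The list of further iron-deficiency loci had 14 of 19 measured, with 2 called higher and a median of 1.38. AT1G52120 had 8.33, 8.64 and 7.59 in bts-3 and 2.95 and 3.71 in WT, and AT1G73120 had 7.74, 7.91 and 6.17 in bts-3 and 3.06 and 3.36 in WT. Both transcripts lay near the lower edge of the scale in WT and in its middle in bts-3, with fold changes of 4.86 (SE 0.34, adjusted p = 0.00157) and 4.06 (SE 0.47, adjusted p = 0.0130). Several others had large fold changes and were not called. CYP71B5, a cytochrome P450, had 3.31 (SE 0.56, adjusted p = 0.0547), AT5G38820 3.48 (SE 0.63) and AT3G07720 2.90 (SE 0.68). UGT72E1, a glucosyltransferase of monolignol aldehydes, had 1.43 (SE 0.29). At the other end AT1G13609, at 1.84, 2.12 and 1.90 in bts-3 and 2.02 and 2.21 in WT, had the only negative fold change of the 26, -0.16.

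**Figure D2:**
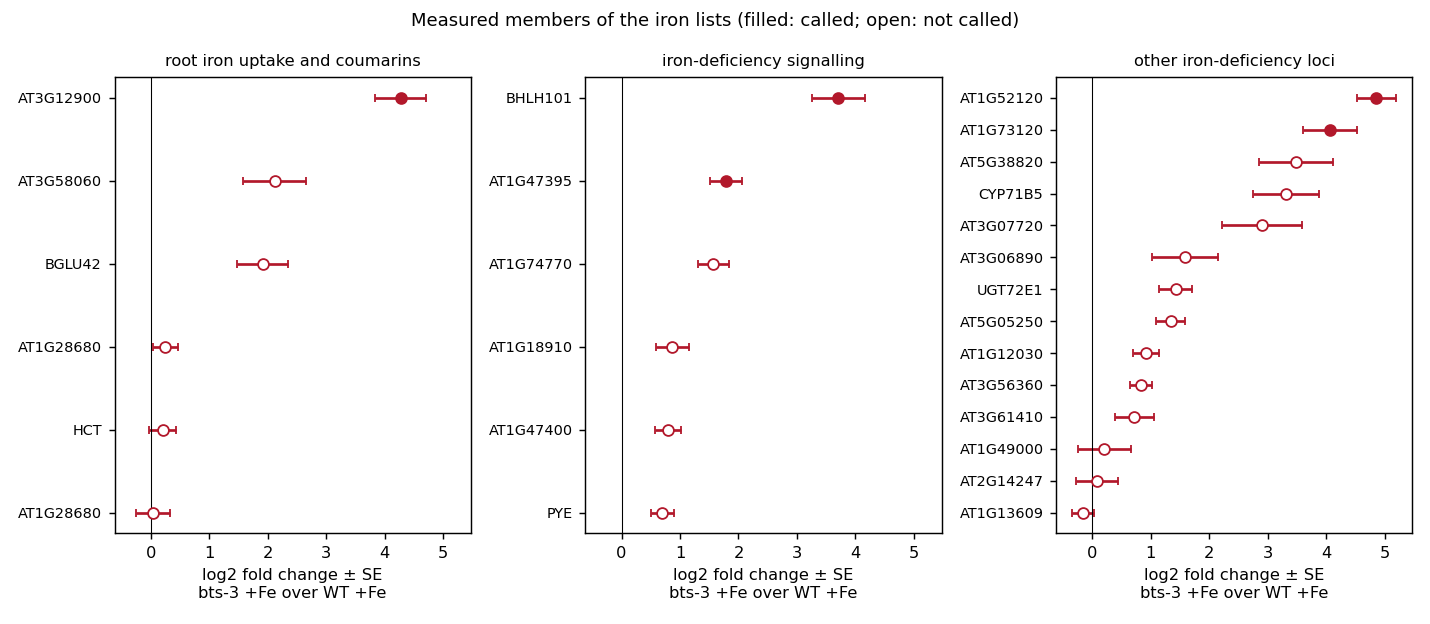
Log2 fold changes of bts-3 +Fe over WT +Fe, with SE bars, for the measured members of the 3 iron lists; filled points were called and open points were not. Of 26 points 25 lie right of 0, and the 5 filled ones run from 1.79 to 4.86.

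The upstream bHLH regulators include the factors that BTS is known to target. All 5 were measured and none was called. ILR3 (bHLH105) had 11.11, 11.18 and 11.33 in bts-3 and 11.20 and 11.02 in WT, groups that overlap, with a fold change of 0.10 (SE 0.18, adjusted p = 0.891). bHLH115 had 0.02, bHLH104 0.00, bHLH121 0.25 and bHLH34 -0.33 (SE 0.20 to 0.38). Of 14 listed loci for iron storage and iron-regulated enzymes 1 was measured, CCS, the copper chaperone of superoxide dismutase, with 0.07.

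Replicate 3 of bts-3 tended to have the lowest levels of iron genes among the mutant arrays. It was the lowest of the 3 bts-3 arrays in 23 of the 26 iron probe sets (88.5%), where 33.1% of all tested probe sets had it lowest. The 5 called iron genes had a median SD of 0.89 in bts-3 (n = 3) and 0.22 in WT (n = 2), where all tested probe sets had 0.21 and 0.14. For the 47 genes called higher outside the iron lists replicate 3 was lowest in 22 (46.8%), and the median SDs were 0.30 in bts-3 and 0.20 in WT.

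Outside the iron lists, AT3G01345 had the greatest rise of all tested probe sets. Its levels were 10.34, 10.82 and 10.81 in bts-3 and 3.91 and 3.59 in WT, means of 10.66 ± 0.27 (SD, n = 3) and 3.75 ± 0.23 (SD, n = 2). The fold change was 6.91 (SE 0.22, adjusted p = 1.33e-05), and it was called in every fit that left out 1 array. AT1G65500 had 7.83, 7.93 and 6.89 in bts-3 and 3.80 and 3.13 in WT, a rise of 4.08 (SE 0.34, adjusted p = 0.00273). AT5G39120 had 8.92, 8.61 and 8.32 in bts-3 and 5.06 and 5.20 in WT, a rise of 3.49 (SE 0.21, adjusted p = 0.00128). Its neighbour on the chromosome, AT5G39110, rose by 2.59. AT5G52390 rose by 3.29 (SE 0.36), AT2G18193 by 3.24 (SE 0.52), AT1G07885 by 2.87, AT1G21400 by 2.79, AT5G07610 by 2.64 and AT2G01023 by 2.63. These loci have no name in the tables used here.

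Detoxification and redox enzymes made up 6 of the 12 higher genes with a symbol, a group of several families made after the calls were seen. Its share among all 1826 tested probe sets with a symbol was not counted, so the 6 do not show an excess. Glutathione transferases join glutathione to reactive or foreign compounds. GSTF3 had 7.87, 7.95 and 7.91 in bts-3 and 4.39 and 4.94 in WT, so the 3 mutant arrays were nearly equal and far above WT, with a rise of 3.24 (SE 0.21, adjusted p = 0.00128). GSTU25 had 7.09, 6.63 and 7.10 in bts-3 and 4.87 and 4.68 in WT, a rise of 2.17 (SE 0.21, adjusted p = 0.00496). MSRB8, a methionine sulfoxide reductase that repairs oxidised protein, had 5.73, 5.41 and 5.22 in bts-3 and 2.70 and 3.22 in WT, a rise of 2.49 (SE 0.23, adjusted p = 0.00469). The flavin monooxygenase FMO rose by 1.65 (SE 0.24). The UDP-glycosyltransferases UGT87A2 and UGT73D1, of a family that attaches sugars to small molecules, rose by 1.38 (SE 0.22) and 1.19 (SE 0.18).

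Other members of these families were divided in direction. Of 15 glutathione transferases measured, 2 were called higher, yet 8 had negative fold changes, the family median was -0.31, and the bts-3 arrays lay wholly below WT in 7 (46.7%, against 15.9% of all tested). GSTU28 had 5.18, 5.41 and 4.50 in bts-3 and 6.92 and 6.44 in WT, a fold change of -1.65 (SE 0.29, adjusted p = 0.0573) that was not called, and ATGSTF13 and GSTU26 had -1.36 and -1.02. GSTF3 is one of a group of closely similar F-class genes, so a probe set for it may also read its relatives. Of 60 UDP-glycosyltransferases measured, 39 had positive fold changes with a median of 0.13, and in 22 (36.7%, against 13.4% of all tested) all bts-3 arrays exceeded WT. UGT71B5 at 1.62 and UGT73B4 at 1.49 had the highest fold changes in that family and were not called. Of 30 genes matched by a CYP symbol none was called and the median was -0.07. Most are cytochromes P450, but the match also took in cyclophilins, among them SQN and CYP59.

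The other higher genes with a symbol had varied roles. SBT3.3, a secreted subtilisin-like protease known from immune priming, had 7.36, 6.53 and 5.31 in bts-3 and 3.25 and 3.39 in WT, a rise of 3.08 (SE 0.50, adjusted p = 0.0442). The mutant arrays spread over 2 units of log2, and the lowest was still well above WT. ATPMEPCRB (PME41), a pectin methylesterase that trims pectin in the cell wall, rose by 2.02 (SE 0.33). SIS (Salt Induced Serine rich) rose by 1.91 (SE 0.26) and ATG8B, a ubiquitin-like protein of autophagosome membranes, by 1.34 (SE 0.20). Of the 63 plastid-encoded genes measured 1 was called, rps16, a protein of the plastid ribosome. It had 8.96, 9.10 and 9.09 in bts-3 and 7.59 and 7.99 in WT, a rise of 1.26 (SE 0.19, adjusted p = 0.0356).

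**Figure D3:**
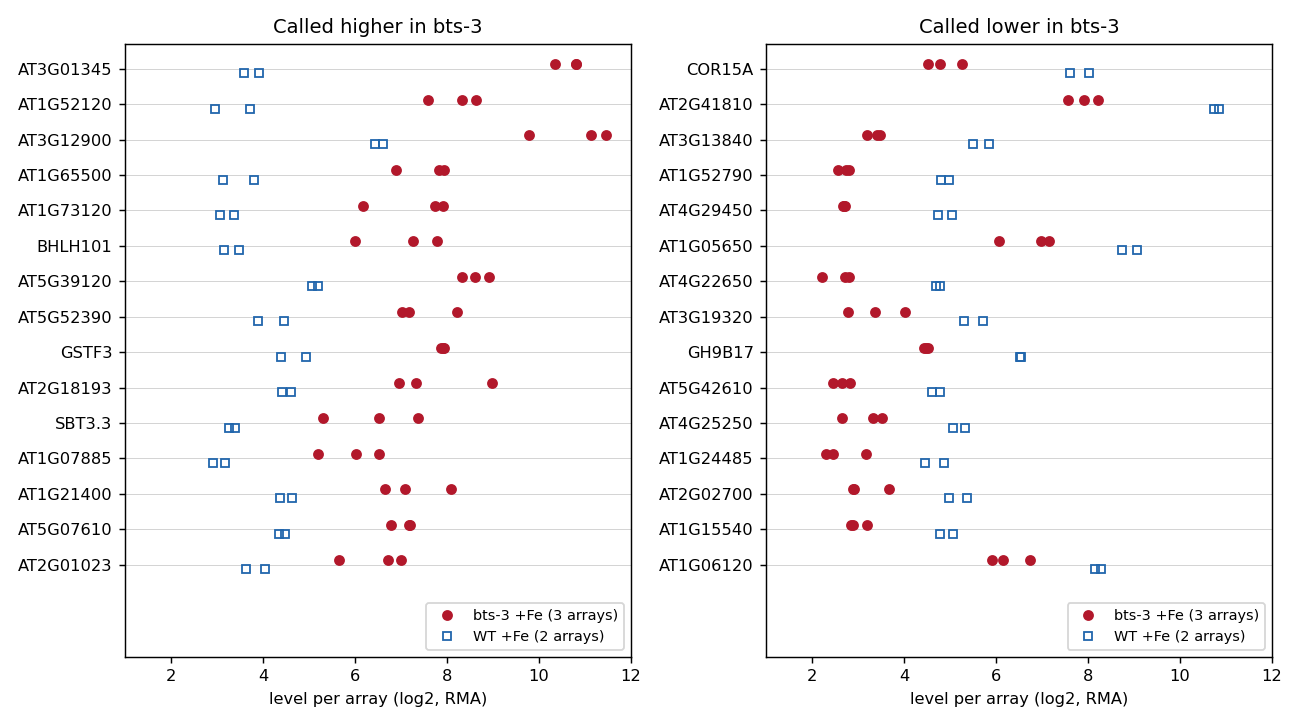
Log2 levels on each +Fe array, bts-3 as filled circles and WT as open squares, for the 15 genes with the highest (left) and the 15 with the lowest (right) called fold changes. Genes were shown only if the genotypes did not overlap, so no circle reaches the squares of its row. The circles of BHLH101 and SBT3.3 are spread more widely than those of GSTF3 and GH9B17.

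On the lower side COR15A had the greatest fall. The gene encodes a chloroplast protein that accumulates in the cold and protects membranes during freezing. It had 5.26, 4.52 and 4.77 in bts-3 and 8.02 and 7.61 in WT, so that each mutant array was more than 2 units below each WT array, and it fell by 2.96 (SE 0.25, adjusted p = 0.00286). Other cold, dehydration and abscisic acid response genes mostly had smaller negative values. Of 13 measured, COR15A was the called one, 11 had negative fold changes, the median was -0.32, and in 4 (30.8%, against 15.9% of all tested) all bts-3 arrays were below WT. COR47, a dehydrin, had 9.55, 9.25 and 8.70 in bts-3 and 10.29 and 10.04 in WT, a fold change of -1.0 (SE 0.26, adjusted p = 0.160). KIN2 and KIN1, small cold-induced proteins, had -1.27 (SE 0.40) and -1.24 (SE 0.51), while AT4G38410 and COR27 had 0.66 and 0.51. COR15B, the close relative of COR15A, was at 1.81, 1.06 and 1.51 in bts-3 and 1.89 and 1.53 in WT, near the bottom of the scale in both genotypes.

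Among the 7 lower genes with a symbol were 2 wall enzymes and a tubulin, a grouping made after the calls were seen; another wall enzyme, ATPMEPCRB, was called higher. GH9B17, a glycosyl hydrolase of the endoglucanase family that cuts wall glucans, had 4.47, 4.51 and 4.43 in bts-3 and 6.53 and 6.55 in WT. The spread within each genotype was below 0.1, and the gene fell by 2.07 (SE 0.16, adjusted p = 0.00263). XTH19, a xyloglucan endotransglucosylase that cuts and rejoins wall xyloglucan, had 2.55, 2.83 and 2.67 in bts-3 and 4.18 and 4.1 in WT, and fell by 1.46 (SE 0.18, adjusted p = 0.0152). TUB5, a beta-tubulin, had 5.44, 5.40 and 5.47 in bts-3 and 6.50 and 6.51 in WT, and fell by 1.07 (SE 0.16, adjusted p = 0.0379).

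The 33 measured genes of wall polysaccharide synthesis and acetylation (TBL, CSL and CESA) had no call, 26 negative fold changes and a median of -0.31, and in 14 (42.4%, against 15.9% of all tested) every bts-3 array was below WT. Of these the lowest were TBL38 at -0.97, TBL28 at -0.95 and TBL41 at -0.94. Of 10 xyloglucan endotransglucosylases 1 was called lower, 8 were negative, and the median was -0.62; XTH21 had -1.53 (SE 0.39, adjusted p = 0.148). Expansins, which loosen walls, had 11 positive and 13 negative values of 24, and EXPB1 had the lowest value, -1.56 (SE 0.30, adjusted p = 0.0699). Of 5 pectin methylesterases 3 were positive, with a median of 0.03 and ATPMEPCRB called higher. All 7 serine carboxypeptidase-like genes had negative values, with a median of -0.35 and no call.

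**Figure D4:**
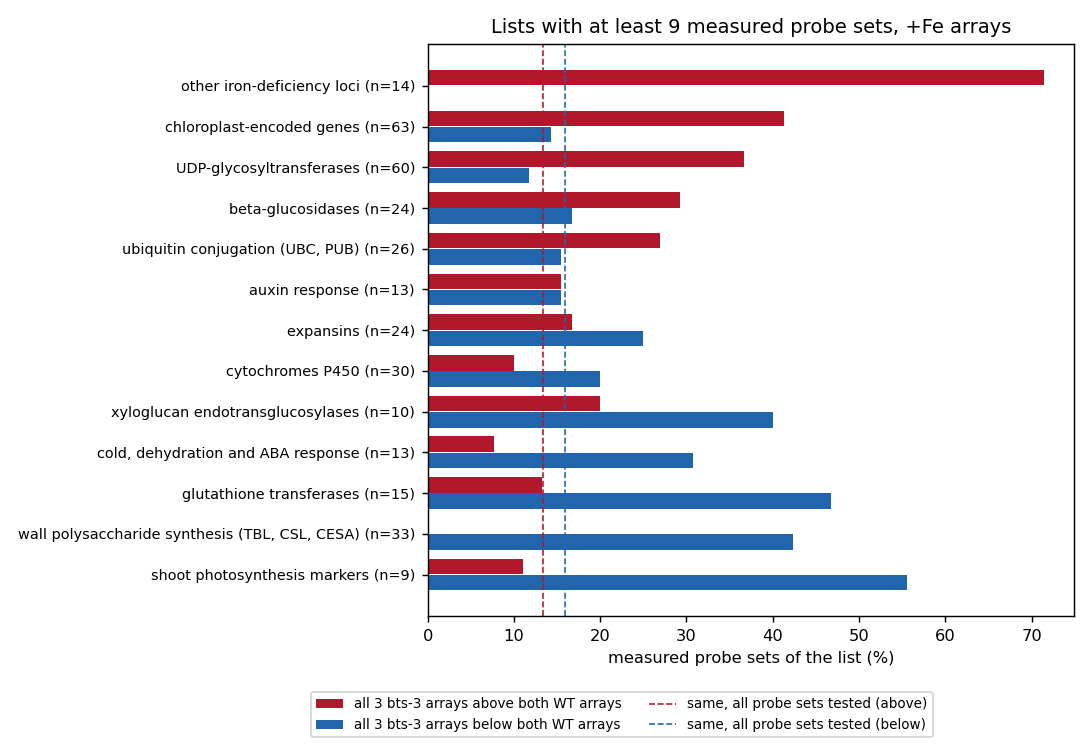
For each gene list with at least 9 measured probe sets, bars give the percentage in which all bts-3 +Fe arrays lay above (red) or below (blue) both WT +Fe arrays; dashed lines give 13.4% and 15.9%, the same over all probe sets tested. The red bar of the further iron-deficiency loci reaches 71.4%, and the wall polysaccharide synthesis list has a blue bar of 42.4% and no red one. The list labelled cytochromes P450 was matched by symbol and also holds cyclophilins.

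The other 3 lower genes with a symbol were a transcription factor and enzymes of primary metabolism. BZIP34, a bZIP factor, had 5.12, 5.06 and 5.11 in bts-3 and 6.40 and 6.65 in WT, and fell by 1.42 (SE 0.17, adjusted p = 0.0152). PDC3, a pyruvate decarboxylase of ethanolic fermentation, had 3.61, 2.94 and 3.36 in bts-3 and 4.59 and 4.86 in WT, and fell by 1.42 (SE 0.23, adjusted p = 0.0468). ALN, the allantoinase of purine breakdown, had 8.98, 9.05 and 8.84 in bts-3 and 10.07 and 9.98 in WT, and fell by 1.06 (SE 0.17, adjusted p = 0.0442). As in all 99 called genes, neither genotype's arrays overlapped the other's in any of the 3.

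Lower genes without a symbol included AT2G41810, a bright transcript with 7.91, 7.55 and 8.22 in bts-3 and 10.84 and 10.74 in WT. It fell by 2.89 (SE 0.22, adjusted p = 0.00251). AT3G13840 had 3.20, 3.41 and 3.48 in bts-3 and 5.85 and 5.51 in WT, a fall of 2.32 (SE 0.19, adjusted p = 0.00273). AT1G52790 and AT4G29450 both fell by 2.19 (SE 0.18 each), AT1G05650 by 2.17, AT4G22650 by 2.16, AT3G19320 by 2.13, AT5G42610 by 2.06, AT4G25250 by 2.03, AT1G24485 and AT2G02700 by 2.02, AT1G15540 by 1.96 and AT1G06120 by 1.94. Several lower genes were dim in the mutant. In 10 of the 47 the bts-3 mean was below 2.98, the lower quartile of the arrays, and 7 of the 52 higher genes had a WT mean below it.

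Some called genes were neighbours. In the gene order of assembly TAIR10.1, AT1G52120 and AT1G52130 (both higher), AT5G39110 and AT5G39120 (both higher), AT1G52790 and AT1G52800 (both lower) and AT4G22640 and AT4G22650 (both lower) were adjacent, with AT4G22666 (lower) 2 places from AT4G22650. Neighbours can be near copies of one another, and probe sets of near copies may share signal, so these pairs may count 1 change more than once. Around BTS itself the calls were not denser than elsewhere: within 200 genes on either side 1 of 240 measured (0.417%) was called, against 0.592% of all tested.

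Markers of other tissue were examined beside these results. Of 9 shoot photosynthesis genes 8 averaged lower in bts-3; the median was -0.49, with no call, and all bts-3 arrays were below WT in 5 (55.6%, against 15.9% of all tested). Their mean level per array was 6.09, 6.14 and 5.85 in bts-3 and 6.60 and 6.39 in WT, and none was at 0. On the arrays without iron the direction was the other way, with 7 of the 9 positive and a median of 0.26. The part of shoot RNA in the lower calls was not tested. EXPA7 and EXPA18, expansins of root hairs, had fold changes of -0.65 (SE 0.29) and -0.95 (SE 0.43), neither of them called. Their mean level was 8.74, 8.57 and 7.47 in bts-3 and 8.97 and 9.15 in WT, so bts-3 replicate 3, lowest for the iron genes, was also lowest here. What root hair number contributed to that array's values was not tested. Of the stably expressed reference genes, AT4G34270 had 0.15, AT2G28390 0.06 and GAPC2 -0.28.

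Without iron, on the other 5 arrays, fewer probe sets separated the genotypes. Limma called no probe set there (lowest adjusted p = 0.977); its unadjusted p was under 0.05 for 693, against 2036 with iron. All bts-3 arrays were above WT in 8.15% of probe sets and below in 11.3%. The SE of AT3G01345 was 1.02 without iron and 0.22 with iron, and that of GSTF3 0.48 and 0.21, while COR15A had 0.23 and 0.25. What the spread within the -Fe groups contributed to the lower counts was not tested, so the lack of calls does not show a smaller genotype difference. The test of the difference between the media, over all 10 arrays, called 1 probe set (0.00598%), AT3G13840, a call lost in 8 of the 10 fits that left out 1 array, with 758 at an unadjusted p under 0.05. The bts-3 arrays of the same replicate number deviated together across the media. With the replicate number as a block for both genotypes, 17 probe sets were called (15 higher and 2 lower, lowest adjusted p = 0.000927), 10 of them from the iron lists. BHLH101 and AT3G12900 were among them, with interactions of 4.22 (SE 0.42, adjusted p = 0.0172) and 6.09 (SE 0.72, adjusted p = 0.0268). That block also joins same-numbered WT arrays across media, whose deviations correlated at -0.11. It joins bts-3 with WT arrays too (-0.04 and -0.06 with iron, 0.31 and 0.26 without). With a block for bts-3 only, chosen after the data were seen, 33 were called, 11 of them from the iron lists. BHLH101 and AT3G12900 were again called (limma adjusted p = 0.01 and 0.0174).

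On the medium without iron all 26 iron probe sets had negative fold changes, with a median of -0.84, but the size rested on bts-3 -Fe replicate 3, the lowest mutant array in 25 of the 26. AT3G12900 had 12.72, 11.82 and 8.14 in bts-3 -Fe and 12.72 and 12.70 in WT -Fe, and AT1G52120 had 9.58, 8.70 and 5.59 in bts-3 -Fe and 9.16 and 9.43 in WT -Fe. Without that replicate, an alternative chosen after the data were seen, the median was -0.27 and 22 of 26 stayed negative, with AT3G12900 at -0.44 in place of -1.82 and AT1G52120 at -0.16 in place of -1.34. AT1G47395, AT1G47400, AT1G12030 and PYE then had positive values, 0.02 to 0.29. No other -Fe array moved the median by over 1.5 times except bts-3 -Fe replicate 1, without which it was -1.34. Of the 47 other higher genes 12 were negative and the median was 0.49. The bts-3 mean with iron was above the WT -Fe mean in 40 of those 47, and in 7366 of all 16722 tested. The 47 had been called for being high in bts-3 with iron, which favours that outcome. Among the 5 called iron genes it was so for AT1G73120. AT3G01345 had a fold change of 4.31 (SE 1.02) without iron, AT4G33720 2.59, AT5G52390 2.28, AT1G65500 1.97, AT5G39120 1.96 and GSTF3 1.69. In these 6, picked from the 52 higher genes, the arrays again did not overlap. Of the 52, 18 had all bts-3 -Fe arrays above WT, as 8.15% of all tested probe sets did. Over all 52 higher genes 35 (67.3%) kept a positive sign, where 47.7% of all tested were positive. Of the 47 lower genes 39 (83.0%) stayed negative, where 52.3% of all tested were negative, with a median of -0.33. COR15A had -1.39, AT2G41810 -0.98 and BZIP34 -0.58, each without overlap, while GH9B17 and TUB5 had -0.19 and -0.25 with overlapping arrays. All bts-3 -Fe arrays were below WT in 8 of the 47 lower genes, as in 11.3% of all tested.

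**Figure D5:**
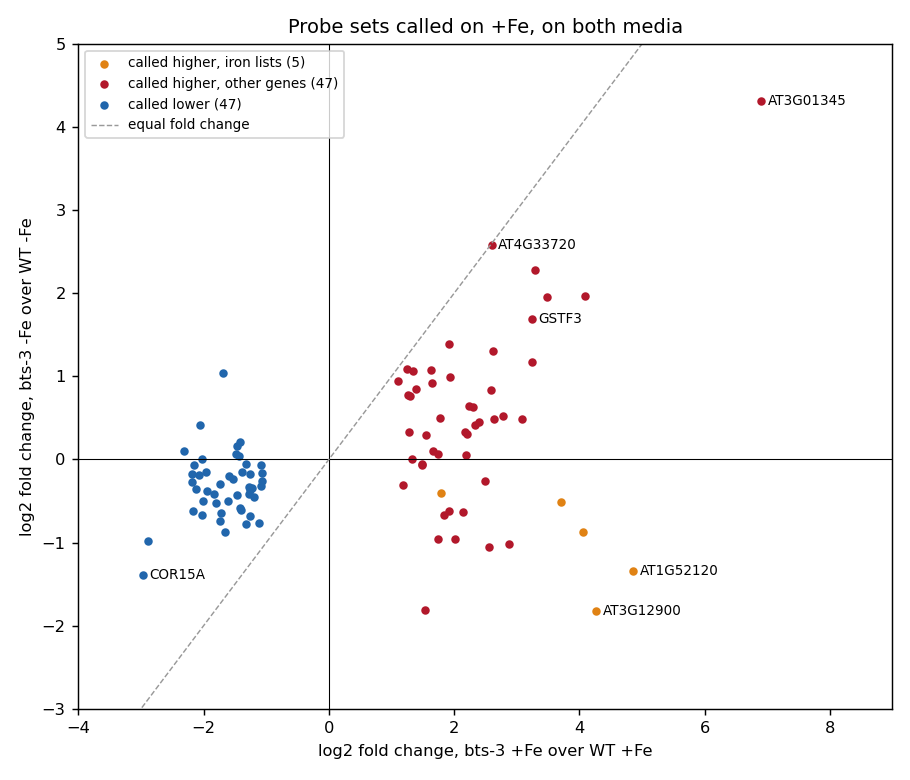
Log2 fold changes of bts-3 over WT for the 99 probe sets called on +Fe medium, with +Fe on the horizontal and -Fe on the vertical axis; the dashed line marks equal values. The 5 called iron genes (orange) lie right of 0 and, with all -Fe arrays, below 0, AT3G01345 lies at 6.91 and 4.31, and 39 of the 47 lower genes (blue) are negative on both axes.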

How the data were processed

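The deposited values were log2 expression levels, 1 per probe set and array, which, per the submitters' processing notes, came from Affymetrix Expression Console by RMA; no version, detection call or genome build is given in the sources used here, so no coordinates are printed. Of 28583 probe sets, 16722 were paired with exactly 1 gene by the platform annotation (759 with several, 11102 unnamed), and 16574 of these were matched to RefSeq's table of assembly TAIR10.1 for names and gene order. Genes known by locus number alone were given no function beyond their list.

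The 5 +Fe arrays were fitted alone in R 4.3.3, using limma 3.58.1 (functions lmFit and eBayes, two-sided tests, 3 residual and 5.14 prior degrees of freedom), with Benjamini-Hochberg adjustment over 16722 probe sets and a threshold of 0.05. The -Fe arrays were fitted likewise, and the interaction over all 10. The number of arrays limits the precision.

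The genes described, the 50 gene lists and the tests were chosen with earlier results of these data known. Of the lists 13 had no measured member and 7 had 1; of 137 loci listed by number 48 were measured. Named genes were the 15 highest and 15 lowest called fold changes without overlap, called list members, the members of the iron lists and up to 3 at either end of a list described; further genes, among them all called genes with a symbol, were picked after their values were seen. Deviations from group means of same-numbered bts-3 and WT +Fe arrays correlated at -0.04 and -0.06, so the numbers did not pair the +Fe groups. Those of same-numbered bts-3 arrays across media correlated at 0.30, 0.51 and 0.39, and those of WT arrays at -0.11. On this evidence from the values, not the labels, the numbers pair the bts-3 arrays across media. The blocked interaction is given beside the unblocked one. Its block for both genotypes goes beyond that evidence, as it also uses the numbers of the WT arrays. Alternatives were other sets of arrays or probe sets, another prior, array weights, renewed quantile normalization, other thresholds, a replicate block and leaving out each array. A planned description of promoter motifs was not made, as no sequences were used here.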

Additional observations from a re-analysis of the deposited data

Results flagged for a closer look

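AT3G13840 was the 1 probe set whose genotype difference itself differed between media by limma's interaction test without a replicate block. Where the replicate block is named for it and for AT1G07885, the block was applied to both genotypes. With iron it had 3.20, 3.41 and 3.48 in bts-3 and 5.85 and 5.51 in WT, and without iron 3.87, 3.77 and 3.74 in bts-3 and 3.85 and 3.52 in WT. The difference with iron minus that without iron was -2.43 (SE 0.27, adjusted p = 0.0474), and WT roots with iron were the group that stood apart from the other 3. The call was lost in 8 of the 10 fits that left out 1 array (adjusted p = 0.0818 to 0.302), with differences between -2.6 and -2.25 over all 10, and was kept with the replicate block (adjusted p = 0.0219).

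AT1G07885 had fold changes of opposite sign on the media. It had 6.02, 6.52 and 5.20 in bts-3 and 3.18 and 2.92 in WT with iron, and without iron 4.49, 4.89 and 3.65 in bts-3 and 5.82 and 4.90 in WT, a fold change of -1.02. In both media the arrays of the genotypes did not overlap, but without iron the nearest were 4.89 in bts-3 and 4.90 in WT. The fold change without iron was not called (limma adjusted p = 0.977), and 11.3% of all tested probe sets lay wholly below WT there. The interaction was not called by limma without a block (adjusted p = 0.201) and was called with the replicate block, at 3.89 (SE 0.41, adjusted p = 0.0199).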

How the results depend on the processing

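The 99 called probe sets kept their direction under every alternative. As their arrays did not overlap between the genotypes, leaving out or weighting arrays could not have reversed it. The number of calls moved. Of 9 refits that left out no +Fe array, all tested 66 of the 99 and all called 21 of these. The number was 48 with all 10 arrays in 1 model (42 shared with the 99), 158 with unnamed probe sets tested too (103 higher, 55 lower, 80 shared), 261 with array weights (all 99 shared), 25 at an adjusted p under 0.01, and 1 to 290 leaving out 1 array. The replicate block gave 578 (all 99 shared); bts-3 replicate 3 has no WT partner, so the contrast then rests on replicates 1 and 2. Of the 30 named genes, 19 were called with all 10 arrays, 19 without probe sets below the median level, where fewer were tested, and 1 to 30 leaving out 1 array. A fit without 1 WT array assumes that the lone array varies like the bts-3 arrays. The interaction called 17 probe sets with the replicate block, 33 with a block for bts-3 only (chosen after seeing the data), and 0 to 7 leaving out 1 array; without iron none was called under any alternative, the lowest adjusted p ranging from 0.151 to 1. The medians of the iron lists stayed positive: uptake and coumarins 0.90 to 1.40, signalling 1.04 to 1.48, further loci 1.12 to 2.24. Where counts moved, the cause was not tested unless given above.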

Other observations

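Some of the greatest fold changes with iron were not called, and the mutant arrays of these genes spread widely. PRX52, a class III peroxidase of cell wall lignin formation, had 9.90, 7.61 and 7.14 in bts-3 and 4.25 and 4.42 in WT, a fold change of 3.89 (SE 0.69, limma adjusted p = 0.0586). BGLU31, a beta-glucosidase, had 6.52, 7.17 and 4.23 in bts-3 and 3.09 and 2.29 in WT, with 3.28 (SE 0.74, adjusted p = 0.103). Downwards, AT1G52820 had 3.23, 5.13 and 6.43 in bts-3 and 8.56 and 8.94 in WT, with -3.82 (adjusted p = 0.0749). In all 3 the genotypes did not overlap.

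Of the plastid-encoded genes with iron, 46 of 63 had positive fold changes, with a median of 0.17, and in 26 (41.3%, against 13.4% of all tested) every bts-3 array was above WT. ccsA, which assembles cytochromes in the plastid, had 0.84 (SE 0.19, adjusted p = 0.105), and rbcL, the large subunit of Rubisco, had -0.35. Nuclear photosynthesis genes had a median of -0.49. Among auxin genes GH3.3, an enzyme that conjugates auxin to amino acids, had 9.15, 7.65 and 6.23 in bts-3 and 5.61 and 5.76 in WT, with 1.99 (SE 0.68, adjusted p = 0.279), and IAA31 had -1.05. None of the 13 auxin genes or of the 26 ubiquitin-conjugating and U-box genes was called. On the arrays without iron, 60 of the 63 plastid-encoded genes had positive fold changes, with a median of 0.30, where 47.7% of all tested were positive. The nuclear photosynthesis genes there had a median of 0.26.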
